A study of Mus musculus with 30 samples.

Results

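A set of 40 genes of mitosis was followed over 5 times in cultured mouse extraocular muscle, the striated muscle that moves the eye. Its members were taken from the arrays by gene symbol: every probe set, a group of short probes for 1 transcript, was kept if the platform annotation gave it 1 of the 40 symbols and no other. This found 88 probe sets for 39 of the 40 genes, 62 among the 22690 probe sets of the Affymetrix A array and 26 among the 22575 of the B array. Cyclin B1, Ccnb1, is a member for which no probe set was used here. The A arrays carried 37 of the genes and the B arrays 15, with 13 genes on both, 24 only on A and 2, Cdca8 and Espl1, only on B. A gene was represented on each array type by its probe set with the highest mean over the 15 arrays of that type.

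The groups were cultures at 0, 4, 12, 24 and 48 h, with 3 arrays of each type at each time and 30 arrays in all. All were labelled as cultured extraocular muscle of mouse. Strain, age, sex, culture medium, the event that started the clock, and whether replicates were separate cultures or A and B arrays with 1 number shared RNA are not stated in the labels, so the p-values cover the spread among arrays and nothing beyond it, and that spread may be technical. The B array labelled replicate 1 of 0 h has leg muscle as its source name although its title names extraocular muscle, and it was kept under its title.

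In mitosis the cyclin-dependent kinase Cdk1, bound to A- and B-type cyclins, starts chromosome condensation and spindle assembly. Kinetochores then attach chromosomes to the spindle, the spindle checkpoint delays anaphase until all are attached, and the anaphase-promoting complex ends the process by marking cyclin B and securin for destruction. In muscle, myoblasts and satellite cells divide, while differentiated myotubes have left the cell cycle, so a culture can hold both kinds of cell. Transcripts of most of these genes build up in G2 and mitosis, and less RNA for them in a bulk sample can come from fewer dividing cells or from less RNA in each. These cannot be told apart here.

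Skeletal muscle markers were abundant in the cultures. Of 14 markers on the A arrays 13 passed the filter on low values, among them Myod1 and Myog, regulators of muscle differentiation, with mean intensities of 6370.1 and 10420. Of 10 fibroblast markers only Col3a1 passed the filter, while Pdgfra, Dcn and Lum averaged 55.5, 16.7 and 61.9. Of 8 endothelial markers 1 passed, of 9 blood and immune markers 3, of 6 Schwann cell and neuron markers 3, and of 4 adipocyte markers none. Of 9 smooth muscle and pericyte markers 6 passed, with mean intensities from 122.4 (Rgs5) to 13259 (Acta2), and Tagln and Pdgfrb at 1756 and 760. The others, Myh11, Cnn1 and Abcc9, averaged 13.6, 15.8 and 57.6.

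The mitosis genes as a group were highest at 4 h and lower from 12 h on. Of the 37 genes on the A arrays 34 had their highest mean at 4 h and 3 (Cdk1, Ccna2 and Bub1b) at 0 h, and 10 were lowest at 12 h, 10 at 24 h and 17 at 48 h. Levels were compared as log2(intensity + 16), fitted with limma over all probe sets whose mean lay at or above the 40th percentile of their array type (13577 on A), and a gene was called where its p adjusted by Benjamini-Hochberg over all of them was under 0.05. All 37 genes passed this filter. All 37 were lower at 48 h than at 4 h, by a median log2 change of -0.55 (range -0.96 to -0.12), while the median of all probe sets tested was 0.02. Past the threshold 12 of the 37 fell, against 2.72% of all probe sets called lower: Ccnb2, Bub1b, Ttk, Aurkb, Incenp, Ndc80, Nuf2, Kif11, Kif2c, Nusap1, Top2a and Ncapd2. For 31 of 37 every 48 h array lay below every 4 h array, which held for 12.2% of all probe sets. The count of 12 rests on every array of both times: it was 4, 5 and 6 without replicates 1, 2 and 3 of 4 h and 6, 6 and 5 without replicates 1, 2 and 3 of 48 h, and 17 without replicate 3 of 12 h.

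At 4 h against 0 h 34 of the 37 genes were higher, with a median log2 change of 0.23, but none passed the threshold (0.0295% of all probe sets did, in either direction), and 6 had an unadjusted p under 0.05. The 4 h arrays all lay above the 0 h arrays for 9 genes (6.12% of all probe sets): Ttk, Ndc80, Nuf2, Kif11, Kif4, Tpx2, Nusap1, Ckap2 and Prc1. At 12 h against 4 h all 37 were lower, with a median of -0.44, and 2 fell, Cenpf and Ckap2 (0.206% of all probe sets were called lower). Without replicate 3 of 12 h that count was 12, and without any single 4 h array, or without replicate 1 or 2 of 12 h, it was 0. It was 1 without replicate 1 of 0 h, replicate 2 of 24 h or any single 48 h array. At 24 h against 4 h all 37 were lower, with a median of -0.53, and 9 fell (2.07% of all probe sets called lower): Ttk, Incenp, Cenpf, Ndc80, Kif11, Nusap1, Ckap2, Top2a and Ncapd2. That count was 3, 1 and 4 without replicates 1, 2 and 3 of 4 h, 2 without replicate 1 or 2 of 24 h, and 5 without replicate 1 of 0 h or replicate 1 of 48 h. These comparisons share the 4 h arrays and are not independent of each other.

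Set against 0 h, the mitosis genes had median changes nearer 0. By 48 h 36 of 37 were lower, with a median of -0.30, and 3 fell, Cdk1, Bub1b and Ncapd2 (2.50% of all probe sets called lower), a count that was 1 without replicate 1 or 3 of 0 h or replicate 1 or 3 of 48 h, and 5 without replicate 3 of 12 h. At 24 h 35 of 37 were lower, with a median of -0.33, none past the threshold (5.56% of all probe sets were, in either direction) and 12 at an unadjusted p under 0.05, while 1 passed it without replicate 2 of 4 h or replicate 3 of 24 h and 2 without replicate 3 of 12 h. At 12 h 32 of 37 were lower, with a median of -0.22, none past the threshold (0.368% of all probe sets were) and 5 at an unadjusted p under 0.05, while 4 passed it without replicate 3 of 12 h. Among the last 3 times few members were called. At 24 h against 12 h no member was called (0.0884% of all probe sets) and none had an unadjusted p under 0.05. Between 24 and 48 h none was called (0.626%) and 1 had an unadjusted p under 0.05, and at 48 h against 12 h only Ncapd2 fell (0.744% called lower). Over all 5 times limma's F-test called 7 of the 37, against 7.59% of all probe sets, and this count was 4 without any single 4 h array and 14 without replicate 3 of 12 h.

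**Figure D1:**
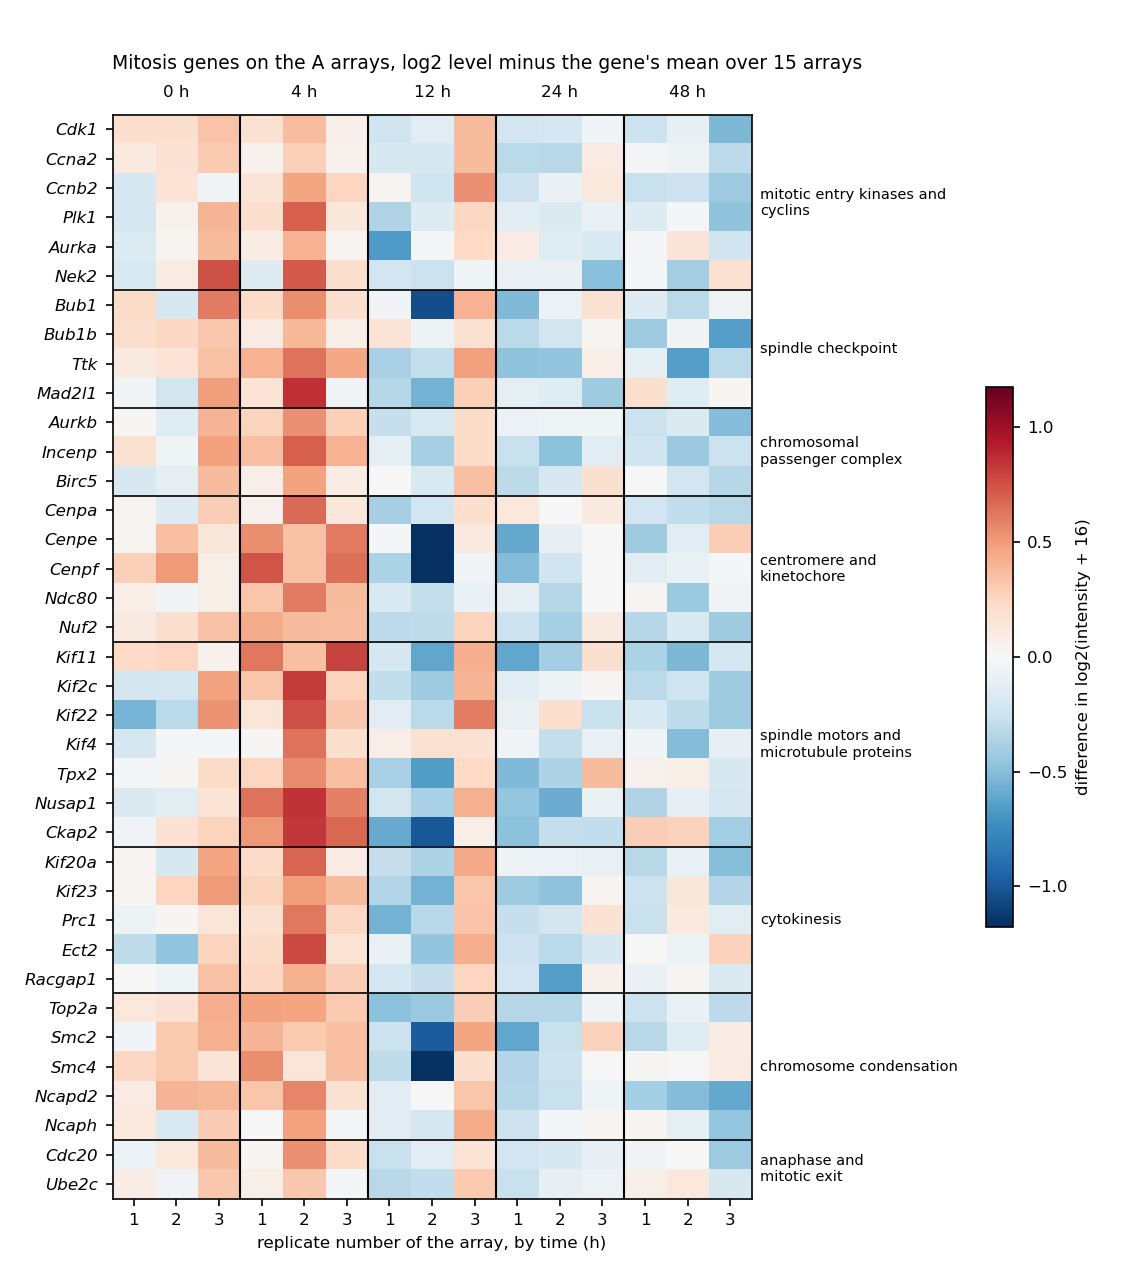
Level of each of 37 mitosis genes (rows, by role) on each of the 15 A arrays (columns, 3 replicates at each of 5 times), as log2(intensity + 16) minus the gene's mean over the 15 arrays. The 4 h columns are red for most genes and the 24 h and 48 h columns blue, and for most genes replicate 3 of 12 h is red where replicates 1 and 2 of 12 h are blue.

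One array stood apart from the others of its time. On 12 h replicate 3 of the A type all 37 genes lay above their 12 h mean, by 0.41 on average on the log2 scale, while replicate 2 lay 0.29 below it. The B array labelled replicate 3 of 12 h lay 0.29 above its time's mean over 12 genes, and replicate 2 lay 0.26 below. The other times were tighter, with the 3 A arrays spanning 0.32 at 0 h, 0.28 at 4 h, 0.26 at 24 h and 0.09 at 48 h. At 4 of the 5 times the A array with the highest level of mitosis genes also had the lowest summed intensity of the 14 skeletal muscle markers. At 12 h this sum was 111370 and 117667 on replicates 1 and 2 and 87573 on replicate 3, and at 4 h it was 68994 on replicate 2, which had the highest mitosis level of all 15 arrays. The B arrays carried 4 of these markers. There replicate 3 of 12 h had the highest sum of its time, 6243, against 5142 and 5380 on replicates 1 and 2. The A array sums ranged from 86034 to 104615 at 48 h, against 68994 to 99218 at 4 h, so the ranges overlapped. The summed fibroblast markers ran from 4050.3 to 4350 at 48 h, against 3074 to 3296 at 4 h. Most of that sum was Col3a1, with a mean intensity of 3154, the only fibroblast marker past the filter. The summed smooth muscle and pericyte markers ran from 15519.5 to 17922 at 48 h, against 10893 to 16308 at 4 h, so these ranges overlapped. Of 6 tested on that list 5 were higher and 1 lower at 48 h than at 4 h. Its members Tagln, Pdgfrb and Mcam rose, by 1.25, 0.88 and 1.68 (adjusted p = 0.00661, 0.00556 and 0.00336, limma), where 541 of all 13577 probe sets were called higher. Of 3 Schwann cell and neuron markers tested 2 were higher and 1 lower at 48 h than at 4 h, and Tubb3 rose, by 0.78 (adjusted p = 0.00803). The part of these differences in the results for mitosis genes was not tested.

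**Figure D2:**
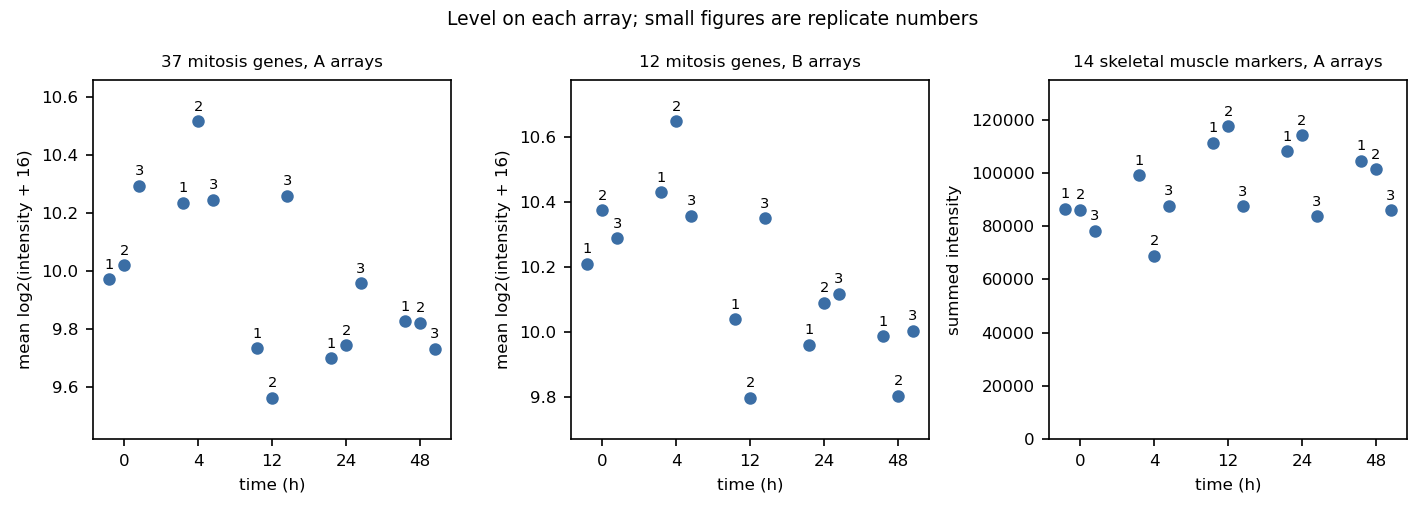
Mean log2(intensity + 16) of the mitosis genes on each A array (left, 37 genes) and B array (middle, 12 genes), and summed intensity of 14 skeletal muscle markers on each A array (right), by time in hours, with each point labelled by its replicate number. The mitosis level averaged 10.09, 10.33, 9.85, 9.80 and 9.79 at 0, 4, 12, 24 and 48 h on the A arrays. Replicate 3 of 12 h is high for mitosis genes on both types and low for muscle markers on the A arrays, the only type shown for these markers.

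Many genes of G2 and mitosis carry in their promoters the CHR element (cell cycle genes homology region), which is bound by the DREAM and MuvB complexes, and CCAAT boxes, which are bound by NF-Y. In the RefSeq promoter table for GRCm38.p6, which gives 250 bases before and 50 after each start, 34 of the 40 members had 36 promoters. CHR letters (either TTTGAA, or else the variant TTTAAA, or else the variant TTCGAA, on either strand) stood in 31 of 36 (86.1%), against 28.8% of all 32851 promoters of the table. CCAAT on either strand stood in 29 of 36 (80.6%), against 37.4%, and in 2 or more places in 18 promoters, against 11.7% of all. Both kinds of letters stood in 28 (77.8%), against 11.3%, and E2F-like letters (either GCGCGAAA or the variant TTTGGCGC, on either strand) in 2 (5.56%), against 0.813%. Of the 12 genes that fell at 48 h against 4 h 10 had a promoter in the table. CHR letters stood in 8 of these, and both CHR and CCAAT letters in 6: Bub1b, Ccnb2, Kif11, Ncapd2, Top2a and Ttk. Over all 36 member promoters CHR letters stood in 31 and both kinds in 28, so neither was more frequent among the genes that fell. The 4 promoters printed below are all among the 6 with both kinds. Nuf2 and Nusap1 had neither in this window. The promoters of Ccnb2 (chr9:70421505-70421804, minus strand), Top2a (chr11:99024140-99024439, minus strand), Ncapd2 (chr6:125191537-125191836, minus strand) and Bub1b (chr2:118597961-118598260, plus strand) are printed to show how these letters lie in 4 of the genes that fell, 5′ to 3′ on the gene's strand with CHR and CCAAT letters, read on either strand, in capitals. No motif searched contains another. A match in letters is a description and not a shown binding site.
Ccnb2: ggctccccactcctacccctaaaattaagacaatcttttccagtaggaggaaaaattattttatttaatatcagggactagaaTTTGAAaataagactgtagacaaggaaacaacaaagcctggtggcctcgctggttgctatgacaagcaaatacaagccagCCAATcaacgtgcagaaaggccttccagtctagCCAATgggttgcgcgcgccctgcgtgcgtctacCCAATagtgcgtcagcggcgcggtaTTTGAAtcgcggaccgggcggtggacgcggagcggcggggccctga
Top2a: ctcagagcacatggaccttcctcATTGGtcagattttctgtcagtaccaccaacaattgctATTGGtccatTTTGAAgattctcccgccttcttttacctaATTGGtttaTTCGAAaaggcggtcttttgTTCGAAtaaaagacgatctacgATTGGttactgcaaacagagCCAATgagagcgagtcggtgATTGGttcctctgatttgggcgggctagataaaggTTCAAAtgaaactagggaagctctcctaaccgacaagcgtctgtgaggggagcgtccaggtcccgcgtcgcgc
Ncapd2: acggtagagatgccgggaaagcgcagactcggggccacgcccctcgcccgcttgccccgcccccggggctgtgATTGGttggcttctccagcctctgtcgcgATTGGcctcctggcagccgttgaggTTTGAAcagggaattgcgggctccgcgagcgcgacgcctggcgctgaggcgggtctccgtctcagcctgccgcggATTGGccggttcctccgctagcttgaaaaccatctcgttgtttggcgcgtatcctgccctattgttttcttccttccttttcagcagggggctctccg
Bub1b: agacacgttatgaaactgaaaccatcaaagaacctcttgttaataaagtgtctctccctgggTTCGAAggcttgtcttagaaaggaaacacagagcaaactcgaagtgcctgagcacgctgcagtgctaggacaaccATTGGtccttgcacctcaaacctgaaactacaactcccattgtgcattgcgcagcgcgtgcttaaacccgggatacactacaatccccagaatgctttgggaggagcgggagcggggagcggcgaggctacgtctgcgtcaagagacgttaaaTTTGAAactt
In Ccnb2 the 3 CCAAT boxes began at positions -87, -54 and -21 from the start. Those of Top2a were spread over 6 places, and Ncapd2 had 3, at -177, -148 and -48, while Bub1b had 1, at -113. CHR letters lay at 2 places in Ccnb2, 4 in Top2a, 1 in Ncapd2 and 2 in Bub1b.

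Among the kinases and cyclins of mitotic entry, all 6 genes measured on the A arrays were lower at 48 h than at 4 h (median log2 change -0.41), 1 of them past the threshold. Cdk1, the kinase that drives entry into mitosis, had intensities of 3902, 3868 and 4297 at 0 h, 3846, 4375 and 3539.8 at 4 h, 2889, 3097 and 4398 at 12 h, 2928, 2971 and 3286 at 24 h and 2853, 3182 and 2358 at 48 h. The 48 h arrays all lay below the 0 h arrays, and all 3 of them below the 4 h arrays. Cdk1 fell at 48 h against 0 h (log2 change -0.53 ± 0.15, SE, adjusted p = 0.0401, limma), and its change at 48 h against 4 h was -0.49 ± 0.15 (adjusted p = 0.0581). The first call was lost in 12 of 26 runs with another setting or an array left out, with an adjusted p of up to 0.168. The arrays whose absence ended it were replicates 1, 2 and 3 of 0 h, replicate 1 of 4 h, replicates 1 and 2 of 24 h, and replicates 1 and 3 of 48 h. Here and below, such lists of left-out arrays do not cover the other settings, under which calls could also be lost, unless a setting is named. Cyclin B2, Ccnb2, a partner of Cdk1, had 1059.5, 1369 and 1195 at 0 h, 1353, 1689.6 and 1454 at 4 h, 1248, 1034 and 1776 at 12 h, 1025, 1151 and 1331 at 24 h and 1014, 1027 and 901 at 48 h. Every 48 h array was lower than every 4 h array, and replicate 3 of 12 h was the highest of the 15. Ccnb2 fell at 48 h against 4 h by 0.60 ± 0.17 on the log2 scale (adjusted p = 0.0439), a call lost without any single 4 h or 48 h array, replicate 1 of 12 h, or replicate 1 or 2 of 24 h. The cyclin Ccna2 and the kinases Plk1, Aurka and Nek2, which act in G2, at centrosomes and on the early spindle, were not called at any pair of times, with changes at 48 h against 4 h of -0.25, -0.56, -0.21 and -0.34. The A array probe set for Nek2 had a mean intensity of 267. Its brightest B array probe set, with a mean of 2730, changed by -0.05 at 48 h against 4 h (adjusted p = 0.979, limma).

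Of the 4 spindle checkpoint genes, which hold the cell before anaphase, 2 fell at 48 h against 4 h (median -0.52). The kinase-like protein BubR1, encoded by Bub1b, is part of the inhibitor of the anaphase-promoting complex, and its gene had A array intensities of 1151, 1179 and 1241 at 0 h, 1064, 1307 and 1049 at 4 h, 1113, 949.9 and 1125 at 12 h, 795, 851 and 1016 at 24 h and 741, 970.5 and 627 at 48 h. The 3 values at 48 h lay below all values at 0 and 4 h. Bub1b fell at 48 h against 0 h (-0.62 ± 0.15, adjusted p = 0.0212) and against 4 h (-0.55 ± 0.15, adjusted p = 0.0390). Leaving out any single 0 h array, or replicate 1 or 3 of 48 h, ended the first call, and any single 4 h array, replicate 1 of 12 h, replicate 2 of 24 h, or replicate 1 or 3 of 48 h the second. On the B arrays another probe set for Bub1b had 2192, 2807 and 2952 at 0 h, 3001, 4222 and 2656 at 4 h, 1922, 1889.7 and 3028 at 12 h, 1145, 1366 and 1822 at 24 h and 1661, 1292 and 1196 at 48 h. It was lower on each 24 h and 48 h array than on any 0 h or 4 h array. There Bub1b fell at 24 h against 4 h (-1.18 ± 0.23, adjusted p = 0.0333) and at 48 h against 4 h (-1.23 ± 0.23, adjusted p = 0.0179). Bub1b was the only 1 of the 12 members tested on the B arrays that was called there, against 0.178% and 0.252% of all probe sets called lower. The 24 h call was lost without replicate 1 or 2 of 4 h or replicate 1 or 2 of 24 h, and the 48 h call without replicate 1 or 2 of 4 h or replicate 2 or 3 of 48 h. The other Bub1b probe set of the B arrays lay below the filter, and with the values of both averaged the change at 48 h against 4 h was -0.25.

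Ttk, the checkpoint kinase also called Mps1, had 429, 446 and 509 at 0 h, 532, 625 and 552 at 4 h, 301, 324 and 560.3 at 12 h, 281, 284 and 421 at 24 h and 369, 247 and 316 at 48 h. The 24 h and 48 h arrays all lay below the 4 h arrays, and replicate 3 of 12 h lay among these. Ttk fell at 24 h against 4 h (-0.79 ± 0.21, adjusted p = 0.0458) and at 48 h against 4 h (-0.86 ± 0.21, adjusted p = 0.0235). The 48 h call was lost without any single 4 h array or replicate 2 or 3 of 48 h, and the 24 h call without any single 4 h array, replicate 1 or 2 of 0 h, replicate 1 or 2 of 24 h, or replicate 1 or 3 of 48 h. Bub1, a kinase that recruits checkpoint proteins to kinetochores, and Mad2l1, which binds Cdc20, changed by -0.49 and -0.30 at 48 h against 4 h and were not called.

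In the chromosomal passenger complex, which corrects faulty attachments of chromosomes, the 3 genes on the A arrays were all lower at 48 h than at 4 h (median -0.67), and 2 fell. Incenp, the scaffold of the complex, had 1479.8, 1259.6 and 1829 at 0 h, 1666, 2124 and 1731 at 4 h, 1205, 992 and 1511 at 12 h, 1086, 925 and 1193 at 24 h and 1106, 961 and 1089 at 48 h. All 24 h and 48 h arrays lay below all 0 h and 4 h arrays. Incenp fell at 24 h against 4 h (-0.78 ± 0.17, adjusted p = 0.0127) and at 48 h against 4 h (-0.79 ± 0.17, adjusted p = 0.00849). The 48 h call was kept under every alternative and with any single array left out, and the 24 h call was lost without replicate 2 of 4 h or replicate 2 of 24 h. The other probe sets for Incenp on the A arrays changed by -0.62 (adjusted p = 0.0607) and -0.13 (adjusted p = 0.792) at 48 h against 4 h, so the gene's probe sets disagreed in size. Aurkb, the kinase of the complex, had 684, 613 and 896 at 0 h, 814, 991 and 824 at 4 h, 557, 596 and 786 at 12 h, 644, 651 and 653 at 24 h and 565, 598 and 469.6 at 48 h. The 48 h arrays lay below all arrays of 4 h and of 0 h. Aurkb fell at 48 h against 4 h (-0.67 ± 0.16, adjusted p = 0.0186), a call lost without replicate 2 of 4 h or replicate 3 of 48 h, or with its probe sets averaged. The second A array probe set for Aurkb changed by -0.52 ± 0.29 in that comparison (adjusted p = 0.34, limma). Birc5, survivin, changed by -0.40 in the same comparison (adjusted p = 0.219). Cdca8, borealin, was measured on the B arrays and changed by -0.20 (adjusted p = 0.771).

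**Figure D3:**
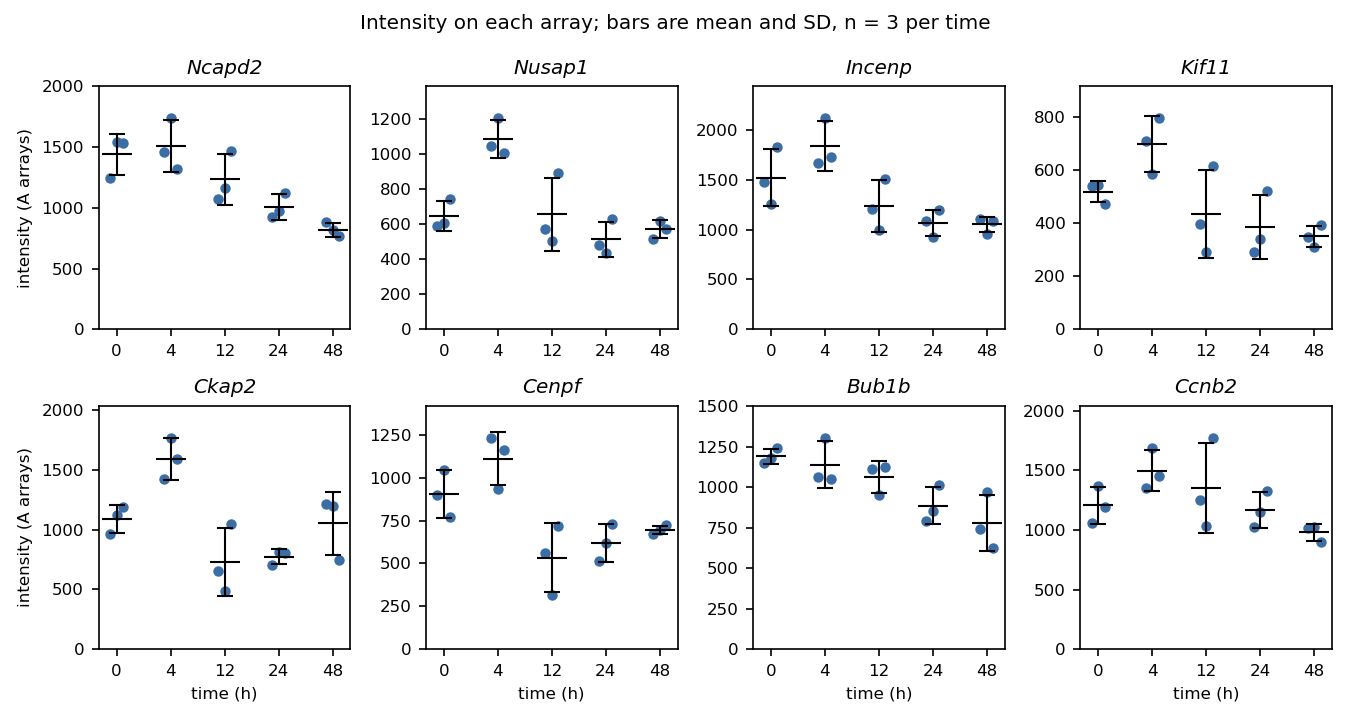
Intensity of 8 mitosis genes on each A array by time in hours. Points are arrays, and bars are the mean and SD of the 3 arrays of a time. Ncapd2 lay between 767 and 881 at 48 h, below every array of the earlier times, while Ckap2 lay between 744 and 1215 at 48 h and between 1420 and 1769 at 4 h.

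All 5 centromere and kinetochore genes were lower at 48 h than at 4 h (median -0.59), and 2 fell. Ndc80 and Nuf2 are subunits of the complex that holds microtubule ends at the kinetochore. Ndc80 had 315, 290.1 and 313 at 0 h, 378, 462 and 390.1 at 4 h, 261, 243 and 280.3 at 12 h, 274, 233 and 297 at 24 h and 305, 215 and 289 at 48 h. The 4 h arrays were above all other arrays. Ndc80 fell at 24 h and at 48 h against 4 h, with a log2 change of -0.59 ± 0.15 in both (adjusted p = 0.0406 at 24 h and 0.0299 at 48 h). Both calls were lost without any single 4 h array, the 24 h call also without replicate 1 of 0 h, replicate 1 of 12 h, or replicate 1 or 2 of 24 h, and the 48 h call also without replicate 2 of 48 h. Nuf2 had 704, 759 and 833 at 0 h, 889, 855 and 848 at 4 h, 527, 529 and 786 at 12 h, 547, 497 and 705 at 24 h and 515, 577 and 486 at 48 h. Its 4 h arrays also lay above all others, and its 48 h arrays below all 0 h and 4 h arrays. Nuf2 fell at 48 h against 4 h (-0.70 ± 0.16, adjusted p = 0.0149), a call lost without replicate 1 of 4 h or replicate 1 or 3 of 48 h. Its change at 48 h against 0 h was -0.53 ± 0.16 (adjusted p = 0.0613).

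Cenpf, a large protein of the outer kinetochore, had 897, 1047 and 771 at 0 h, 1235, 937 and 1164 at 4 h, 563, 317 and 717 at 12 h, 511, 622 and 733 at 24 h and 674, 695 and 722 at 48 h. It was lowest at 12 h. Cenpf fell at 12 h against 4 h (-1.10 ± 0.22, adjusted p = 0.0434) and at 24 h against 4 h (-0.83 ± 0.22, adjusted p = 0.0436), and its change at 48 h against 4 h was -0.65 ± 0.22 (adjusted p = 0.0944). The 12 h call was lost without any single 4 h or 48 h array, replicate 1 of 0 h, replicate 1 or 2 of 12 h, or replicate 2 of 24 h. The 24 h call was lost without any single 4 h or 48 h array, replicate 1 of 0 h, replicate 1 of 12 h, or replicate 1 or 2 of 24 h. A second, dimmer A array probe set for Cenpf, with a mean intensity of 151, was not called in limma at 24 h or 48 h against 4 h (adjusted p = 0.303 and 0.369). Its change at 48 h against 4 h was -0.37. Cenpa, the histone H3 variant of centromeres, and Cenpe, a kinetochore motor, changed by -0.57 and -0.58 at 48 h against 4 h and were not called (adjusted p = 0.0579 and 0.269). The A array probe set for Cenpe had a mean intensity of 154. Its B array probe set, with a mean of 1880, changed by -0.38 in that comparison (adjusted p = 0.642, limma).

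Spindle motors and microtubule proteins held the member with the largest fall at 48 h against 4 h. All 7 were higher at 4 h than at 0 h (median 0.46, none called) and lower at 48 h than at 4 h (median -0.70), and 3 fell. Nusap1, which bundles spindle microtubules, had 587, 605 and 742 at 0 h, 1042, 1205 and 1006 at 4 h, 569, 503 and 889.9 at 12 h, 477, 436 and 626 at 24 h and 515, 617 and 574 at 48 h. Each 4 h array exceeded every array of the other times. Its change at 4 h against 0 h, 0.74 ± 0.19, was the highest of the 37 genes but had an adjusted p of 0.537. Nusap1 fell at 24 h against 4 h (-1.07 ± 0.19, adjusted p = 0.0031) and at 48 h against 4 h (-0.91 ± 0.19, adjusted p = 0.00738), and both calls were kept under every alternative and with any single array left out. At 48 h against 0 h its change was -0.17 ± 0.19 (adjusted p = 0.664). A second, dimmer A array probe set for Nusap1, with a mean intensity of 112, was not called in limma at 24 h or 48 h against 4 h (adjusted p = 0.751 and 0.509). Its change at 48 h against 4 h was -0.37.

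Kif11, the motor that pushes spindle poles apart, had 539, 544 and 473 at 0 h, 709, 587 and 798 at 4 h, 395, 292 and 617 at 12 h, 292, 342 and 520.4 at 24 h and 348, 312 and 392 at 48 h. The 24 h and 48 h arrays were all below the 4 h arrays, while replicate 3 of 12 h lay within their range. Kif11 fell at 24 h against 4 h (-0.86 ± 0.23, adjusted p = 0.0428) and at 48 h against 4 h (-0.96 ± 0.23, adjusted p = 0.0191). The other A array probe sets for Kif11 also fell at 48 h against 4 h, with log2 changes of -0.70 and -0.78 (adjusted p = 0.0415 and 0.0459). The 48 h call was lost without replicate 1 or 3 of 4 h or replicate 1 or 2 of 48 h, and the 24 h call without any single 4 h array, replicate 1 or 2 of 0 h, replicate 1 of 12 h, replicate 1 or 2 of 24 h, or replicate 1 of 48 h. Kif2c, a motor that takes microtubules apart, had 664, 669 and 1078 at 0 h, 977, 1379.5 and 933 at 4 h, 629.9, 577 and 1023 at 12 h, 703, 740.0 and 781 at 24 h and 619, 657 and 574 at 48 h. Its 48 h arrays lay below all arrays of 0 h and 4 h. Kif2c fell at 48 h against 4 h (-0.79 ± 0.21, adjusted p = 0.0327), a call lost without replicate 1 or 2 of 4 h or any single 48 h array, and its other tested probe sets changed by -0.57 and -0.37 without passing the threshold.

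Ckap2, a cytoskeleton-associated spindle protein, had 963, 1118 and 1187 at 0 h, 1419.9, 1769 and 1589 at 4 h, 651, 489 and 1043 at 12 h, 704, 810.1 and 808 at 24 h and 1215, 1195 and 744 at 48 h. Its 4 h arrays were above all others, and 2 of the 3 arrays at 48 h were above every array of 12 and 24 h. Ckap2 fell at 12 h against 4 h (-1.18 ± 0.22, adjusted p = 0.0295) and at 24 h against 4 h (-1.02 ± 0.22, adjusted p = 0.0135). The 12 h call was lost without any single 4 h array or replicate 1 or 2 of 12 h, and the 24 h call without replicate 2 of 4 h or replicate 1 of 24 h. At 48 h against 4 h its change was -0.62 ± 0.22 (adjusted p = 0.114). Kif22 and Kif4, motors that act on chromosome arms, and Tpx2, an activator of Aurora A, changed by -0.70, -0.49 and -0.40 at 48 h against 4 h and were not called. A second A array probe set for Tpx2 fell in that comparison (-0.96 ± 0.20, adjusted p = 0.00827), while the Tpx2 probe set of the B arrays changed by 0.02, so the probe sets of this gene disagreed.

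**Figure D4:**
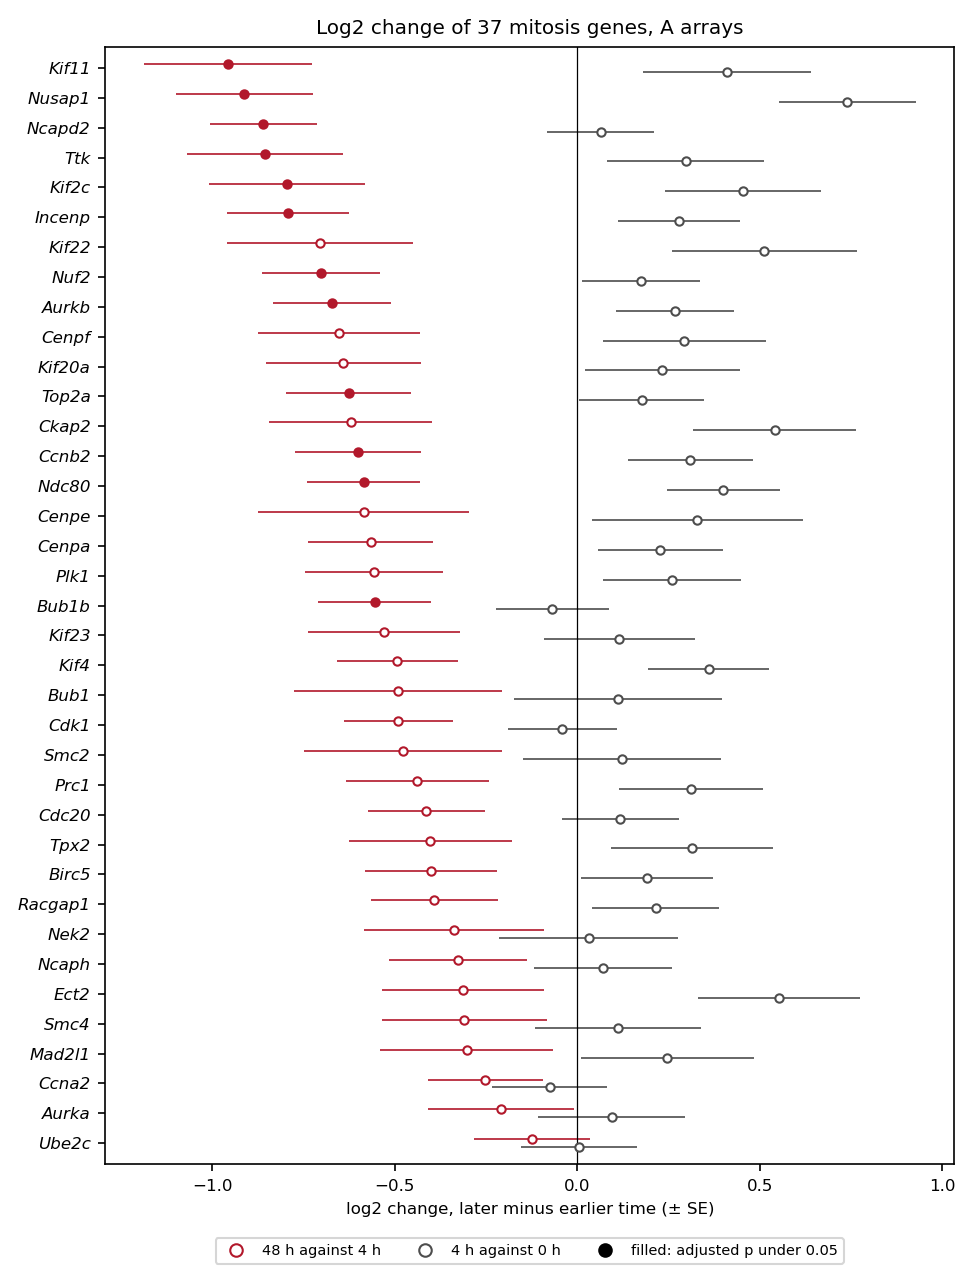
Log2 change ± SE of 37 mitosis genes on the A arrays at 48 h against 4 h (red) and at 4 h against 0 h (grey), ordered by the change at 48 h against 4 h, with filled points for an adjusted p under 0.05. All changes at 48 h against 4 h lie below 0, from -0.96 to -0.12, with 12 filled, and 34 at 4 h against 0 h lie above 0 with none filled.

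None of the 5 cytokinesis genes, which build the central spindle and cleavage furrow, was called at any pair of times, although all 5 were higher at 4 h than at 0 h (median 0.23) and lower at 48 h than at 4 h (median -0.44). Kif23, a motor of the centralspindlin complex, had 1047, 1231 and 1466 at 0 h, 1239, 1457 and 1335 at 4 h, 806, 696 and 1292 at 12 h, 766, 736 and 1052 at 24 h and 864, 1133 and 805 at 48 h. The 48 h arrays lay below the 4 h arrays but overlapped those of 0 h. Its change at 48 h against 0 h was -0.41 ± 0.21 (adjusted p = 0.283), and at 24 h against 4 h -0.66 ± 0.21 (adjusted p = 0.0824). Racgap1, the partner of Kif23, changed by -0.39 at 48 h against 4 h, and its second A array probe set fell in that comparison (-0.59 ± 0.16, adjusted p = 0.0335). Kif20a, Prc1 and Ect2, which organise the midzone and activate the furrow, changed by -0.64, -0.44 and -0.31. On the A arrays Ect2 was the only member with a higher level at 48 h than at 0 h, by 0.24 ± 0.22 (adjusted p = 0.601), and on the B arrays the 1 such member was Nek2, by 0.23 ± 0.23 (adjusted p = 0.832).

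Of the 5 genes of chromosome condensation 2 fell at 48 h against 4 h (median -0.48). Ncapd2, a subunit of condensin I, had 1249, 1541 and 1531 at 0 h, 1464, 1742 and 1322 at 4 h, 1070.1, 1164 and 1471 at 12 h, 925, 971 and 1125 at 24 h and 881, 814 and 766 at 48 h. Each 48 h array lay below each array of every earlier time. Ncapd2 fell at 48 h against 0 h (-0.80 ± 0.15, adjusted p = 0.00269) and against 4 h (-0.86 ± 0.15, adjusted p = 0.00159), and both calls were kept under every alternative and with any single array left out. It also fell at 24 h against 4 h (-0.57 ± 0.15, adjusted p = 0.0339), a call lost without replicate 1 or 2 of 4 h or replicate 1 or 2 of 24 h. Its fall at 48 h against 12 h (-0.57 ± 0.15, adjusted p = 0.0474) was lost without replicate 2 or 3 of 0 h, replicate 1 or 3 of 4 h, replicate 1 or 2 of 24 h, or any single 12 h or 48 h array. The Ncapd2 probe set of the B arrays changed by -0.14 ± 0.28 at 48 h against 4 h (adjusted p = 0.927).

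Top2a, topoisomerase II alpha, which untangles sister chromatids, had 2387, 2470.3 and 2957 at 0 h, 3060.3, 3033 and 2718 at 4 h, 1570.0, 1615 and 2693 at 12 h, 1738, 1738 and 2151 at 24 h and 1840.5, 2083 and 1773 at 48 h. The 24 h and 48 h arrays were below all 0 h and 4 h arrays. Top2a fell at 24 h against 4 h (-0.65 ± 0.17, adjusted p = 0.0406) and at 48 h against 4 h (-0.63 ± 0.17, adjusted p = 0.0352). The 24 h call was lost without any single 4 h array, replicate 1 or 2 of 24 h, or replicate 1 of 48 h, and the 48 h call without any single 4 h or 48 h array. Averaging its probe sets, 1 of which had a mean of 6.78, gave -0.30 at 48 h against 4 h. Smc2, Smc4 and Ncaph, further condensin subunits, changed by -0.48, -0.31 and -0.33 and were not called.

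The anaphase and exit genes had the median change nearest 0 at 48 h against 4 h, -0.27, and none was called. That median is over only 2 genes, Cdc20 and Ube2c, each by its brightest A array probe set. Cdc20, which activates the anaphase-promoting complex, had 2126, 2443 and 2889.8 at 0 h, 2269, 3259.8 and 2599 at 4 h, 1864, 2047 and 2503 at 12 h, 1911, 1963 and 2091 at 24 h and 2179.9, 2235 and 1659 at 48 h. The 48 h arrays were below the 4 h arrays and overlapped those of 0 h, with a change of -0.41 ± 0.16 at 48 h against 4 h (adjusted p = 0.144) and -0.30 ± 0.16 against 0 h (adjusted p = 0.326). Another A array probe set for Cdc20, with a mean intensity of 1995 against 2269, changed by -0.69 ± 0.21 at 48 h against 4 h (adjusted p = 0.0577, limma). Ube2c, the ubiquitin-conjugating enzyme of that complex, changed by -0.12 at 48 h against 4 h, the smallest change of the 37 genes. Espl1, separase, the protease that cleaves cohesin, was measured on the B arrays and changed by -0.45 ± 0.23 (adjusted p = 0.558).

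On the B arrays 12 of 15 members passed the filter. Of these 10 were higher at 4 h than at 0 h (median 0.21), and 11 were lower at 48 h than at 4 h (median -0.45, against a median of 0.00 for all B probe sets tested). No member was called at the other 8 pairs of times, at any of which 1.37% of all B probe sets were called, and the F-test called only Bub1b, against 1.02% of all. Incenp, Cenpf, Top2a and Ncapd2 fell on the A arrays at 24 h against 4 h. None of them passed the threshold on the B arrays in that comparison (adjusted p = 0.917, 0.499, 0.357 and 0.984, limma). At 48 h against 4 h their B array changes were -1.33 ± 0.62, -0.94 ± 0.26, -0.77 ± 0.28 and -0.14 ± 0.28. These changes did not pass it either (adjusted p = 0.491, 0.137, 0.307 and 0.927). On the A arrays Incenp, Top2a and Ncapd2 fell at 48 h against 4 h, and Cenpf was not called. Of the 20 further A array probe sets of members that were tested, all 20 were lower at 48 h than at 4 h (47.7% of all probe sets). Past the threshold 4 of them fell (2.72% of all probe sets called lower), those of Kif11, Tpx2 and Racgap1. They were measured on the same arrays as the members' other A probe sets, so they are not independent of these.

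The other genes of the mitotic programme, 115 in 4 lists, were also mostly lower at 48 h. Of 82 tested on the A arrays 67 were lower and 15 higher at 48 h than at 4 h (median -0.25). In 1 of the lists, that of condensin, cohesin and the anaphase-promoting complex, 12 of 21 were lower and 9 higher. Past the threshold 8 of the 82 fell (2.72% of all probe sets were called lower) and 1, Mad1l1, rose (541 of 13577 were called higher). Those that fell, named here after their values were seen, were the spindle protein Aspm (-1.02 ± 0.20, adjusted p = 0.00502), Ccnf, Cep55, Mis18a, Cdc25b, Hmmr, Cks2 and Smc1a. At 4 h against 0 h 53 were higher and 29 lower (median 0.06), none past the threshold. At 48 h against 0 h 66 were lower and 16 higher (median -0.19), and 4 fell (2.50% of all probe sets were called lower). These 4 were cyclin F, Ccnf (-0.84), the chromatin protein Hmgb2 (-0.69), the Cdk subunit Cks2 (-0.44) and the cohesin subunit Smc1a (-0.42). Foxm1 and Mybl2, transcription factors that activate genes of G2 and mitosis, changed by -0.21 and -0.19 at 48 h against 4 h, and Mki67, which encodes the proliferation marker Ki-67, by -0.72 (adjusted p = 0.142), none of them past the threshold.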

How the data were processed

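Total RNA was hybridised to Affymetrix arrays of the A and B types, 15 each, per the labels with the manufacturer's standard protocol. No label or header names the software, the summary method or detection calls. The deposited intensities, 1 linear value per probe set, had a mean of 500.2 (A) and 500.1 (B) on every array after leaving out the lowest and highest 2%, so the authors had scaled each array and every change is relative to its array. Column medians ranged from 154.7 to 181.5 on A and from 272.8 to 297.7 on B, and arrays of the same time correlated with 0.962 to 0.979 on A and 0.852 to 0.891 on B (mean r of an array with the others). Gene symbols came from the platform annotation: 20393 had 1 symbol on A, 691 several and 1606 none (14674, 245 and 7656 on B), with 20364 and 14499 matched to the reference gene table.

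Here log2(intensity + 16) was used, which shrinks the changes of dim probe sets. Controls (64 on each type) and any probe set with a mean under the 40th percentile (an intensity of 101.0 on A and 199.6 on B) were not tested. With limma 3.58.1 in R 4.3.3, a mean for each time was estimated from the 15 arrays of a type together (10 residual degrees of freedom, eBayes with an intensity trend), giving 10 pairs of times and an F-test. P-values were adjusted by Benjamini-Hochberg within each comparison. The script was tested on simulated data. Members described array by array were those past the threshold anywhere and, in each role, the 1 with the largest moderated t at 48 h against 0 h. Of the other lists, up to 4 genes past the threshold in that comparison were named. The members and lists were chosen with earlier results of these data known. Alternatives changed 1 choice at a time: scaling (quantile or median), pseudocount, filter, a replicate block, the intensity trend, which times entered the fit, averaging a gene's probe sets, and leaving out single arrays. The figures used matplotlib 3.10.9.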

Additional observations from a re-analysis of the deposited data

How the results depend on the processing

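The direction of the mitosis genes at 48 h against 4 h was kept: under 11 other settings and with each of 15 arrays left out, 35 to 37 A array members were lower, and the median lay between -0.59 and -0.45 with an array left out. At 4 h against 0 h 2 to 11 members were lower. Of 29 calls of a member, run 26 times each (754 runs), 549 runs kept the call, 204 lost it and 1 reversed it. Averaging the probe sets of a gene gave Bub1b on the B arrays 0.117 at 24 h against 4 h (adjusted p = 0.921). The calls of Incenp at 48 h against 4 h, Ncapd2 at 48 h against 0 and 4 h, and Nusap1 at 24 and 48 h against 4 h, 5 in all, were kept in every run. The causes of the changes were not tested.

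Counts of called A members changed as follows. At 12 h against 4 h the 2 became 1 with quantile normalization or averaged probe sets and 0 with median scaling, no filter, no trend, only the times compared or the replicate block. At 24 h against 0 h the 0 became 1 with quantile normalization, a 60th percentile filter or averaged probe sets. At 24 h against 4 h the 9 became 3 with median scaling and 4 with no filter or no trend. At 48 h against 4 h the 12 became 7 with no filter, and at 48 h against 12 h the 1 became 0 with median scaling, no filter, no trend, only the times compared or the replicate block. Of the B counts, the 1 at 24 h against 4 h became 0 with median scaling, no filter, no trend, only the times compared or averaged probe sets, the 1 at 48 h against 4 h became 0 with no trend or averaged probe sets, the 1 of the F-test became 0 with no filter, no trend or averaged probe sets, and the 0 at 48 h against 0 h became 1 with quantile normalization. Averaged probe sets gave a B median of -0.22 in place of -0.54 at 12 h against 4 h, and of -0.12 in place of 0.04 at 24 h against 12 h.

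With 1 array left out, A counts ranged from 4 to 14 in the F-test, 0 to 4 at 12 h against 0 h, 0 to 12 at 12 h against 4 h, 0 to 2 at 24 h against 0 h, 1 to 13 at 24 h against 4 h, 1 to 5 at 48 h against 0 h, 0 to 2 at 48 h against 12 h and 4 to 17 at 48 h against 4 h. B counts ranged from 0 to 1 in the F-test, at 24 h against 4 h, at 48 h against 0 h and at 48 h against 4 h. The A median at 12 h against 4 h ranged from -0.66 to -0.34, and B medians from -0.61 to -0.37 at 12 h against 4 h, -0.14 to 0.10 at 24 h against 12 h and 0.0472 to 0.27 at 4 h against 0 h.

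Replicate numbers were not taken to pair the arrays: deviations of arrays with the same number correlated from -0.364 to 0.421 on A and from -0.101 to 0.114 on B, and 6 of 15 A arrays and 5 of 15 B arrays correlated best with their own number. With the replicate block the A counts at 12 h against 4 h and 48 h against 12 h became 0, and no other count moved by over 1.5 times. Changes of probe sets near background are limited by the number of arrays and by the constant added before the logarithm.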

Other observations

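Genes of DNA replication, which act in S phase, did not share the high level at 4 h. Of 40 tested on the A arrays 33 were lower at 4 h than at 0 h (median log2 change -0.21, none past the threshold), while 34 of the 37 mitosis genes were higher. By 48 h against 0 h 39 of 40 were lower, with a median of -0.46, and 11 fell (2.50% of all probe sets were called lower). Among the 11 were the helicase subunit Mcm7 (-0.78 ± 0.14, adjusted p = 0.00180, limma), the ribonucleotide reductase subunit Rrm2 (-0.78 ± 0.14, adjusted p = 0.00218), the polymerase clamp Pcna (-0.52 ± 0.10, adjusted p = 0.00273) and the single-strand binding protein Rpa2 (-0.76 ± 0.14, adjusted p = 0.00282). Against 4 h the median at 48 h was -0.28 and 3 fell, Mcm6, Mcm7 and Rrm1 (2.72% of all probe sets were called lower). The difference between the time courses of the 2 lists was not tested.

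Of 12 cell cycle inhibitors tested 8 were higher at 48 h than at 0 h (median 0.17), none past limma's threshold, while 52.5% of all probe sets were higher. Against 4 h the direction was the other one, with 8 of the 12 lower at 48 h (median -0.11). Ccng2 alone fell at 48 h against 4 h (-0.53 ± 0.15, adjusted p = 0.0398), where 2.72% of all probe sets were called lower. Of the muscle markers Tnnt3, a troponin of fast muscle, rose at 48 h against 0 h (0.87 ± 0.24, adjusted p = 0.0383) and Myod1 fell (-0.73 ± 0.18, adjusted p = 0.0232). Mad1l1, a spindle checkpoint gene outside the 40, rose at 48 h against 4 h (1.26 ± 0.37, adjusted p = 0.0480) and was singled out after its value was seen.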
